A study of Mus musculus with 42 samples.

Results

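The genes described here encode cleavage stimulation factor (CstF) and cleavage factor I (CFI), a pair of complexes of the 3′ end processing machinery. The 7 genes were Cstf1, Cstf2, Cstf2t and Cstf3 (CstF) and Nudt21, Cpsf6 and Cpsf7 (CFI), chosen by name from 13513 genes with a polyadenylation site (PAS) in the 3′READS data and 12365 genes in the RNA-seq data. They held 47 of the 61518 PASs assigned to protein-coding genes.

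An mRNA 3′ end is made by cleavage of the nascent transcript and addition of a poly(A) tail. A hexamer such as AAUAAA upstream of the site is bound by another complex, CPSF, and CstF binds U- and GU-rich sequence downstream of it. In CstF, the proteins of Cstf2 and of Cstf2t, an intronless copy of Cstf2, contact the RNA, and that of Cstf3 is the scaffold, which binds both these proteins and that of Cstf1. In CFI, the Nudt21 protein binds UGUA motifs upstream of the site, together with the product of Cpsf6 or Cpsf7. Both complexes are known for an influence on which of several sites in a 3′UTR is used: CFI favors distal sites, and high CstF levels are linked to proximal ones.

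3′READS, which sequences the junction of an mRNA and its poly(A) tail and so counts reads per PAS, was run on 38 libraries, and RNA-seq on 4. NIH3T3 cells, a mouse fibroblast line, were left untreated (NT), exposed to 250 µM sodium arsenite for 1 h (arsenic stress, AS), or exposed and then returned to normal medium for 4 h (RC4) or 8, 12 or 24 h. Total RNA of these cells gave 10 3′READS libraries: NT and AS with 3 each (replicates 1, 2 and 4), and 1 for each recovery time (replicate 4). The 4 RNA-seq libraries (NT and AS at 0 h, NT and RC4 at 4 h) also came from total RNA. In a further set, RNA made during 1 h with 50 µM 4-thiouridine (4sU) was separated from unlabelled flow-through (Ft) RNA, with 4 libraries of each kind in the same 4 conditions. Cytoplasmic RNA of NIH3T3 cells was taken before (input) and after immunoprecipitation of the RNA-binding protein TIA1, with 2 libraries each in NT and AS. C2C12 cells, a mouse muscle precursor line, were studied as proliferating myoblasts (MB) and as differentiated myotubes (MT). Their total RNA gave 2 untreated libraries for each state, and their cytoplasmic RNA gave 2 NT (0 h and 4 h), 1 AS and 1 RC4 library for each state. In the C2C12 cytoplasm the AS and RC4 comparisons shared their NT libraries, and the recovery times of total RNA shared 1 NT library. The study calls the TIA1 and input libraries, those of MB and MT total RNA and replicates of NIH3T3 total RNA in AS biological replicates, without giving their numbers or saying whether they were separate cultures. For the other libraries the sources used here name no kind of replicate, so p-values there measured the spread between libraries, which may be technical.

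The 3′READS libraries held 1048335 to 6974664 reads and the RNA-seq libraries 17137579 to 25194062. The deposited tables list a site or gene in a library from 5 reads upward, and one below that is called unlisted. Levels are given as RPM, the reads of a gene or site scaled to a fixed number of non-mitochondrial reads, and intervals on shares are 95% Wilson intervals, which cover counting error only. The 6 myotube markers summed to 12171 to 12408 RPM in MT total RNA and to 77.2 to 81.0 RPM in MB, and the 5 cell cycle genes to 226 to 234 RPM in MT and to 1466 to 1550 RPM in MB. The 6 arsenite response genes summed to 96.1 to 452 RPM in NT total RNA of NIH3T3 cells, to 1316 to 1974 RPM in AS and to 12255 RPM in RC4, where the cell cycle genes summed to 145 RPM against 680 to 1466 RPM in NT. The 3 myoblast markers, including Myod1, were unlisted in every NIH3T3 library. In total RNA they summed to 159 to 168 RPM in MB and 568 to 716 RPM in MT, so this list was higher in MT. The 5 fibroblast markers did not set NIH3T3 cells apart. They summed to 2447 to 6289 RPM in NT total RNA of NIH3T3 cells, 9647 to 9948 in MB and 13524 to 15897 in MT. The part of these shifts in the results on the 7 genes was not tested, and in RNA from a whole culture fewer cells of a type and less RNA per cell cannot be told apart. The NIH3T3 total RNA libraries of replicate 4 stood apart from replicates 1 and 2 in the Cstf2t level, the Cstf3 site used and the Cstf2 3′UTR.

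Each gene had between 1 PAS (Nudt21) and 21 PASs (Cpsf6), and 4 of the 7 (Cstf1, Cstf2, Cpsf6 and Cpsf7) had at least 2 sites in the last exon or at its end that each took at least 5% of their reads. Coordinates are those of mouse build mm9 (NCBIM37). The sequences show the sites on which the results turned. Each runs 5′ to 3′ on the gene's strand, 30 bases long, read from the mm9 genome, with the AATAAA or ATTAAA hexamer in capitals. For Cstf3, the upstream site at chr2:104449586 lay 56000 nt before the annotated gene end (chr2:104430680-104505586, plus strand), at the end of the annotated short transcript Cstf3-002, and the last-exon site lay at chr2:104505582.
Cstf3 upstream site: tgcaacaacATTAAAacagtttcaatggtg
Cstf3 last-exon site: tttgaaaggAATAAAaggacctcaaaaaca

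The pairs of 3′UTR sites of Cstf1 (chr2:172196181-172207948, plus strand), Cstf2 (chrX:130593726-130621358, plus strand) and Cpsf7 (chr19:10599734-10622225, plus strand) were those on which 3′UTR length was measured. The proximal site (pPAS) and the distal site (dPAS) were 1364 nt apart in Cstf1, 2361 nt in Cstf2 and 74 nt in Cpsf7. The dPAS of these genes lay within 6 nt of the annotated end of the 3′UTR.
Cstf1 pPAS: ttgtcctggtAATAAAgctcagatctacaa
Cstf1 dPAS: atttctaaAATAAAttttttttatataaca
Cstf2 pPAS: acattaAATAAActttgaacacaagtttaa
Cstf2 dPAS: tcgtggattcAATAAAtattttaaaagtca
Cpsf7 pPAS: attgtgtAATAAActtgatgacgatgtcaa
Cpsf7 dPAS: ttttaaatAATAAAtggggtgtgagctgtt

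Cpsf6 (chr10:116781724-116814029, minus strand) spread its reads over 5 such sites of its last exon, all between 2618 and 4639 nt short of the annotated end. Its most used site (chr10:116786094) and the next one upstream (chr10:116786363) were 269 nt apart and formed its pair. Its other such sites, with 13.2%, 7.3% and 6.3% of its reads, lay further downstream, so the dPAS of this pair was not its most distal site. Nudt21 (chr8:96543303-96560939, minus strand) had a single site at chr8:96543298, 5 nt past the annotated end.
Cpsf6 dPAS of the pair: agtgttgtAATAAActgtttatggggctga
Cpsf6 pPAS of the pair: gatctgAATAAAgcaaatctgcataaatgg
Nudt21 site: tttctcATTAAActctgaaaagtcttagag

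Of these 11 sites, 9 carried AATAAA and the upstream Cstf3 site and the Nudt21 site carried ATTAAA. Among 61355 PASs examined, 37.5% had the AATAAA hexamer within 45 nt upstream, and 51.6% had one of the 2 hexamers. The letters TGTA, which stand for the CFI motif, occurred at least once in the 100 nt before 51.7% of all PASs and at least 2 times before 18.6%. The most used Cpsf6 site and the Cpsf7 dPAS each had 3 copies, and the Nudt21 site and the last-exon Cstf3 site each had 2. TGTGT, looked for in the 40 nt after a site on the gene's strand and present at 15.7% of all PASs, followed the most used Cpsf6 site, the Cstf1 dPAS and both Cstf3 sites once each. Among sites of these genes not shown here, the Cpsf6 site at chr10:116785400 had neither hexamer and 3 copies of TGTGT. The upstream Cstf2 site at chrX:130610402 had 4 copies of TGTA. The 61355 PASs include rarely used sites, so their shares are not those of sites used as much as these. A match is a description of the letters only.

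Cstf2t (chr19:31157331-31161080, plus strand) is a single exon inside an intron of Prkg1, which lies on the other strand. Of its reads, 99.8% came from 1 PAS at chr19:31161481, 401 nt past the annotated end, which had no AATAAA or ATTAAA and no TGTA. The site is the last base of a run of 10 A in the genome, shown in capitals in the sequence that starts at the run.
Cstf2t site and downstream bases: AAAAAAAAAAtctcattaagaacaagttta

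That Cstf2t site ranged from 19.0 to 11933 RPM over the 38 libraries. In NT total RNA of NIH3T3 cells it stood at 382, 73.9 and 11933 RPM, so replicates of a single condition were far apart. The 4 RNA-seq libraries gave 1413 (NT, 0 h), 1293 (AS), 1438 (NT, 4 h) and 1296 (RC4) normalized counts. Whether genomic A bases at this site were read as a poly(A) tail was not tested. The gene's other site lay 395 nt upstream and held at most 79 reads in a library. For most Cstf2t results below, a value without the main site or the reads at its sites are given. Those given with neither rested on the main site.

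The other 6 genes differed less between libraries. Across the 38 libraries Cpsf6 ranged from 105 to 396 RPM (median 215), Cstf3 from 29.6 to 714 (median 102), Cpsf7 from 20.8 to 196 (median 49.9), Cstf1 from 13.9 to 96.0 (median 33.9) and Cstf2 from 9.47 to 92.5 (median 26.2). Nudt21 had 588 reads in all, at most 17.5 RPM, and was unlisted in 6 libraries. RNA-seq counts divided by coding length in kb allowed the genes to be compared with each other. In the NT library at 0 h, Cpsf6 was highest at 2516 normalized counts per kb, followed by Cpsf7 (1156), Nudt21 (943), Cstf2t (745), Cstf3 (642), Cstf2 (251) and Cstf1 (201). With 1 library there was no replicate error to separate neighbours in this order. Nudt21 was in the third place by RNA-seq per kb and lowest by 3′READS, where reads outside the counted window were not used. Whether most of its PAS reads lay outside the sites counted here could not be told, so the 3′READS values of Nudt21 describe reads at its single site and may not be the level of the gene. Without an isoform table for the RNA-seq counts, the short and long Cstf3 transcripts could not be separated there.

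The first comparison asked how the genes differed between MT and MB. In total RNA, 4 of the 7 were lower in MT (Cpsf6, Nudt21, Cstf2 and Cstf1), 2 were higher (Cstf2t and Cstf3) and Cpsf7 did not pass the threshold. In this comparison 61.9% of the 10107 genes tested were called, so 6 of 7 was not far from the share of all genes. The median log2 fold change of the 7 was -0.62, against 0.04 for all genes tested. Fold changes and adjusted p-values here and below are from edgeR's quasi-likelihood test with Benjamini-Hochberg adjustment over all genes tested. Each SE was derived from that test, as the absolute log2 fold change divided by the square root of the F statistic.

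Among the CFI genes, Cpsf6, which encodes a partner of the Nudt21 protein, stood at 233 and 244 RPM in the MB libraries and 113 and 111 RPM in MT. The groups were far apart, and the log2 fold change was -0.94 ± 0.10 (SE, n = 2 against 2, edgeR adjusted p = 1.1e-06). Nudt21, encoding the UGUA-binding subunit, stood at 8.61 and 7.42 RPM in MB and 1.63 and 2.37 RPM in MT. Its log2 fold change was -1.82 ± 0.44 (edgeR adjusted p = 0.00217), on 6 and 10 reads in MT and 27 and 29 in MB at the single site counted. Cpsf7, which encodes the alternative partner, stood at 54.9 and 65.7 RPM in MB and 41.8 and 45.7 RPM in MT. These values did not overlap either, but the difference did not pass (log2 fold change -0.32 ± 0.15, edgeR adjusted p = 0.0733), and it did pass without MB replicate 2 (-0.45, adjusted p = 0.0171). The share of Cpsf7 in the reads of both partners was 19.1 and 21.2% in MB and 27.0 and 29.1% in MT.

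Among the CstF genes, Cstf2 was lower in MT, at 22.2 and 23.7 RPM against 38.9 and 43.7 in MB (log2 fold change -0.70 ± 0.17, edgeR adjusted p = 0.00192). Cstf1 stood at 25.8 and 31.2 RPM in MT and 50.4 and 47.1 in MB (-0.62 ± 0.16, edgeR adjusted p = 0.00377). Without MT replicate 2 the value for Cstf1 was -0.49 (adjusted p = 0.0559). The intronless copy Cstf2t moved the other way, from 529 and 873 RPM in MB to 887 and 1064 in MT (0.62 ± 0.16, edgeR adjusted p = 0.00317). Without its site at the A run, few reads were left and the value was 1.92 (adjusted p = 0.0512). DESeq2 kept the calls of Cpsf6, Cstf2 and Nudt21 (adjusted p = 0.0486 for Cstf2 and 0.0446 for Nudt21) and lost those of Cstf1 (0.0593), Cstf2t (0.161) and Cstf3 (0.147).

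Cstf3, the scaffold gene, had the smallest difference of the genes that passed. Its level was 106 and 104 RPM in MB and 125 and 109 in MT (log2 fold change 0.31 ± 0.12, edgeR adjusted p = 0.0343). The call was lost without MT replicate 2 (0.21, adjusted p = 0.309) and without MB replicate 3 (0.28, adjusted p = 0.0782), and the last-exon sites alone gave -0.20 (adjusted p = 0.316). The site in the last exon stood at 69.9 and 63.2 RPM in MB and 61.3 and 44.0 in MT. The upstream site stood at 36.0 and 40.7 RPM in MB and 64.0 and 63.2 in MT. The higher Cstf3 level in MT thus lay at the upstream site.

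**Figure D1:**
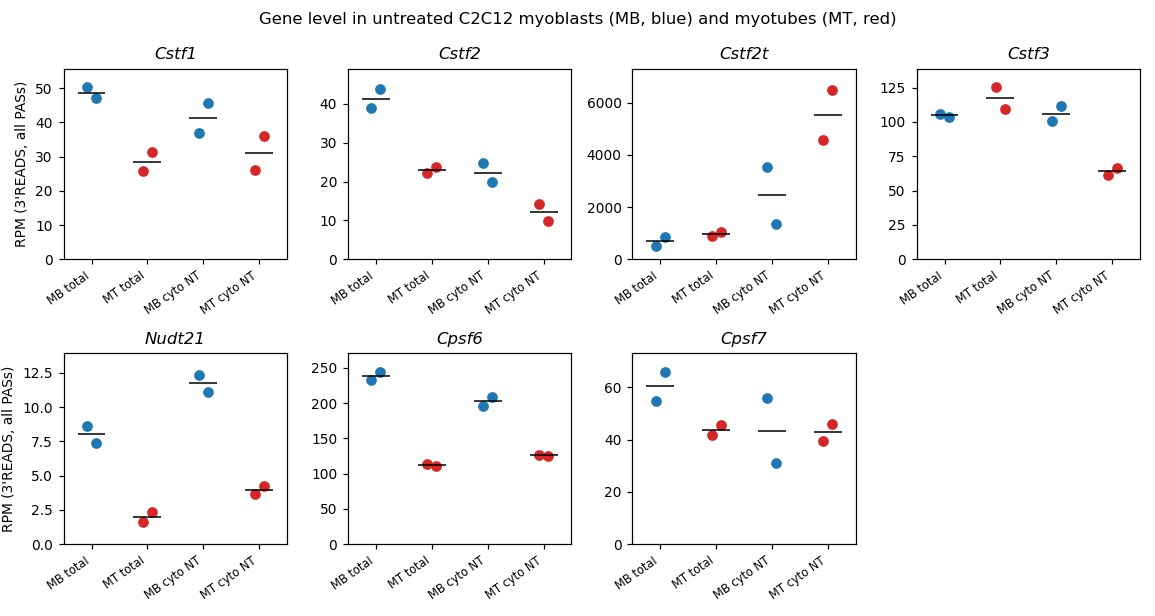
Level of each gene in untreated C2C12 myoblasts (MB, blue) and myotubes (MT, red), in RPM over all PASs on a linear axis from 0, with 1 point per library and a line at the mean of the 2 libraries of each group. In total RNA the Cpsf6 points fell from 233 and 244 RPM in MB to 113 and 111 in MT, and Cstf3 was lower in MT in the cytoplasmic libraries only.

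Cytoplasmic RNA of the same cell states gave a second set of 8 libraries, in which cell state and treatment were fitted together. There 2 of the 7 genes were called, both lower in MT, against 35.2% of 10003 genes tested. Nudt21 stood at 12.3 and 11.1 RPM in the NT libraries of MB and 3.67 and 4.22 in those of MT (log2 fold change -1.44 ± 0.42, edgeR adjusted p = 0.0248). Cstf2 stood at 24.7 and 19.8 RPM in MB and 14.2 and 9.98 in MT (-0.93 ± 0.25, edgeR adjusted p = 0.0168). Both calls depended on single libraries. Nudt21 was lost without any of 5 libraries, namely the MT RC4, MT NT 0 h, MT NT 4 h, MB RC4 or MB NT 0 h library (adjusted p = 0.0661, 0.0853, 0.077, 0.0996 and 0.0624). Cstf2 was lost without the MT AS, MT NT 4 h or MB AS library (adjusted p = 0.0635, 0.0609 and 0.0709).

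The other genes did not pass in the cytoplasm. Cpsf6 stood at 196 and 209 RPM in the NT libraries of MB and 127 and 125 in MT, and over all 8 libraries its log2 fold change was -0.36 ± 0.18 (edgeR adjusted p = 0.154). It passed without the MT AS library (-0.57, adjusted p = 0.0308) and without the MB AS library (-0.58, adjusted p = 0.0305). Cstf1 had a log2 fold change of -0.68 ± 0.25 (adjusted p = 0.0623) and passed without the MT NT 4 h library (-0.84, adjusted p = 0.0458). Cpsf7 (-0.17), Cstf2t (0.11) and Cstf3 (-0.38) also missed the threshold. The Cstf2t value rested on its main site, since the other site had 7 reads in 1 of the 8 libraries and was unlisted in the rest.

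Cstf3 differed between the sets. It stood at 101 and 111 RPM in the NT cytoplasmic libraries of MB and at 61.5 and 66.8 in those of MT, whereas in total RNA MT was no lower. In a joint fit of total and NT cytoplasmic libraries, the MT vs MB log2 fold change of Cstf3 in the cytoplasm minus that in total RNA was -1.10 ± 0.21 (edgeR adjusted p = 0.0173), and 9.08% of 10181 genes were called. Cstf3 was the only one of the 7 called. The call was lost without either MT total RNA library, either MB total RNA library or either MT cytoplasmic library (adjusted p = 0.051 to 0.108), and with last-exon sites alone (-0.80, adjusted p = 0.118). The RNA fraction and the set of libraries cannot be told apart here.

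**Figure D2:**
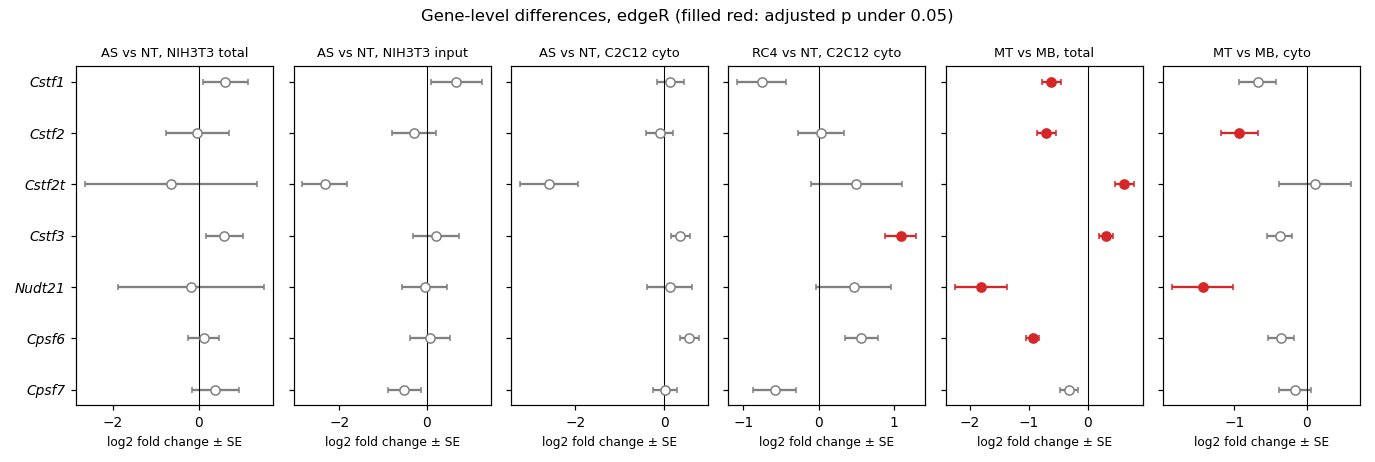
Log2 fold change of each gene in 6 comparisons, each panel with its own axis, with bars of 1 SE and filled red points for an edgeR adjusted p under 0.05. In MT vs MB total RNA 6 of the 7 genes passed and in RC4 vs NT only Cstf3 did, while none passed in the 3 panels of AS vs NT.

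The share of Cstf3 reads at upstream PASs was 34.0% and 39.2% in MB total RNA and 51.1% and 59.7% in MT. The MT and MB shares did not overlap. The log2 change of the ratio of last-exon to upstream reads from MB to MT was -1.10 ± 0.30, which missed the threshold (edgeR adjusted p = 0.0619), and 17.9% of 1059 genes were called in this test. It passed without MB replicate 3 (-1.27, adjusted p = 0.0418) and with unlisted sites set to 4 reads (adjusted p = 0.0027). In the NT cytoplasmic libraries the share was 30.3% and 25.0% in MB and 35.8% and 37.4% in MT. Cpsf6 was called in this test (edgeR adjusted p = 0.0234) on 11 and 12 upstream reads in MT, 2.6% of its reads in each library, with those sites unlisted in both MB libraries. It was not tested without either MT library, where those reads were too few. Cstf2, which has an upstream site at chrX:130610402 at the end of the annotated transcript Cstf2-007, had upstream shares of 8.2% and 5.8% in MB and 9.8% and 20.0% in MT (edgeR adjusted p = 0.183).

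None of the 5 genes whose 3′UTR site pair could be tested between MT and MB was called, and 2.82% of 4256 pairs were. In simulated data with an assumed spread between libraries, this test recovered 10% of 2-fold and 75.8% of 4-fold changes of the ratio. Nudt21 has no pair, and the pPAS of Cstf3 was unlisted in these libraries. The dPAS share of Cstf1 was 17.7% and 17.4% in MB and 14.7% and 16.7% in MT. For Cstf2 it was 29.9% and 29.2% in MB and 29.7% and 36.2% in MT. Cpsf7 had 55.2% and 57.6% in MB and 51.3% and 57.0% in MT, and Cpsf6 had 66.8% and 77.2% in MB and 76.1% and 65.9% in MT. The log2 changes of the dPAS to pPAS ratio of these 4 genes lay between -0.18 and 0.24, and the values of MB and MT overlapped in all but Cstf1. The share of all pairs without overlap was not counted. The Cstf2t pair had a log2 change of -1.32 ± 0.96 (edgeR adjusted p = 0.483), with its pPAS at 6 reads and unlisted in MB and at 10 and 14 reads in MT.

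The second comparison asked how the genes differed after AS. In total RNA of NIH3T3 cells none of the 7 was called, and 0% of the 9115 genes tested were (19 at an unadjusted p under 0.05, and 0 called by DESeq2, with 28 at an unadjusted p under 0.05). Replicates with the same number deviated together here, so they were also compared within pairs. With the replicate number as a block 0.318% of genes were called (29 genes), again none of the 7. In simulated data of this design the test without the block recovered 0% of genes changed 1.5-fold, 2-fold or 4-fold, so its lack of calls carried no information. The blocked test recovered 12%, 59% and 89% of them, so small differences were not detectable at this replication.

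Among the CstF genes, Cstf3 was higher in AS within each pair, at 68.5 RPM in NT and 86.8 in AS (replicate 1), 40.3 and 73.9 (replicate 2), and 37.8 and 58.2 (replicate 4). Its log2 fold change was 0.60 ± 0.43 (n = 3 against 3, edgeR adjusted p = 1.00) and 0.63 with the block (adjusted p = 0.363). Cstf1 also had the higher value in AS within each pair (18.5 and 31.6, 13.9 and 15.6, and 28.7 and 45.8 RPM), with a log2 fold change of 0.63 ± 0.52 and 0.53 with the block (adjusted p = 0.708). Cstf2 was at 92.5, 58.2 and 14.0 RPM in NT and 84.9, 44.2 and 32.6 in AS, so its pairs went both ways (-0.03 ± 0.73). Cstf2t had a log2 fold change of -0.64 ± 2.01, the widest error of the 7, and its other site held 79, 5 and 0 reads in NT and 60, 20 and 0 in AS, too few for a test without the main site.

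Among the CFI genes, Cpsf6 stood at 236, 230 and 233 RPM in NT and 221, 275 and 253 in AS (0.11 ± 0.36). Cpsf7 stood at 88.1, 31.2 and 51.7 RPM in NT and 117, 48.5 and 52.0 in AS (0.39 ± 0.56), so AS was the higher in each pair. Nudt21 stood at 6.89 and 4.89 RPM in NT replicates 1 and 4 and at 7.36 and 1.74 RPM in AS replicates 1 and 2, and was unlisted in the other 2 libraries (-0.17 ± 1.70). None of these passed without the block (edgeR adjusted p = 1.00). With the block the log2 fold change of Cpsf7 was 0.40 (adjusted p = 0.725), that of Cpsf6 0.11 (adjusted p = 0.935) and that of Nudt21 0.35 (adjusted p = 0.973). The share of all genes that were higher in AS within each pair was not counted.

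The cytoplasmic input of NIH3T3 cells gave a further set of AS and NT libraries, in which 0% of 8535 genes were called (155 at an unadjusted p under 0.05, and 24 called by DESeq2). This test and the values below were unpaired. Input libraries with the same replicate number deviated together (r = 0.576). With that number as a block 76 of the 8535 genes were called, a member among them. Cstf2t was at 267 and 537 RPM in NT and 65.2 and 103 in AS, with no overlap (log2 fold change -2.33 ± 0.51, edgeR adjusted p = 1.00; DESeq2 adjusted p = 0.0026). Without the site at the A run the value was -0.78, on few reads. That site held 910 of 918 and 1288 of 1298 Cstf2t reads in NT, and 213 of 213 and 186 of 194 in AS. Cpsf7 was lower in AS in both pairs here (45.6 and 66.2 RPM in NT, 37.6 and 44.0 in AS, -0.51 ± 0.39), and Cstf1 was higher in both (37.5 and 14.1 RPM in NT, 54.5 and 28.6 in AS, 0.67 ± 0.58).

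In the cytoplasm of C2C12 cells none of the 7 was called after AS, against 0.4% of 10003 genes. Cstf2t stood at 3546 and 1352 RPM in NT MB, 729 in AS MB, 4577 and 6474 in NT MT and 560 in AS MT. It was lower in AS in both cell states (log2 fold change -2.60 ± 0.66, edgeR adjusted p = 0.172; DESeq2 adjusted p = 0.0172), and without the A run site too few reads were left for a test. Cpsf6 was at 214 RPM in AS MB, where NT was at 196 and 209, and at 250 RPM in AS MT, where NT was at 127 and 125 (0.56 ± 0.22, edgeR adjusted p = 0.396). Cstf3 was at 109 RPM in AS MB and 102 in AS MT (0.36 ± 0.21, edgeR adjusted p = 0.571).

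The third comparison asked how the genes differed after 4 h of recovery. The cytoplasm of C2C12 cells, with 1 RC4 library in each cell state, allowed a test, in which 7.94% of 10003 genes were called. In simulated data of this design it recovered 0%, 15% and 68% of genes changed 1.5-fold, 2-fold and 4-fold. Cstf3 was the only one of the 7 called. It stood at 138 RPM in RC4 MB, against 101 and 111 in NT, and at 154 RPM in RC4 MT, against 61.5 and 66.8 in NT. RC4 was above NT in both cell states (log2 fold change 1.09 ± 0.21, n = 2 against 4, edgeR adjusted p = 0.0138), and the value was 0.88 (adjusted p = 0.108) without the RC4 library of MT. Cell cycle genes summed to 708 RPM in RC4 MB against 1340 to 1830 in NT MB, and the part of this shift in the Cstf3 value was not tested.

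The last-exon site carried the Cstf3 difference. It stood at 70.2 and 83.5 RPM in NT MB, 87.0 in AS and 118 in RC4. In MT it stood at 39.4 and 41.8 RPM in NT, 79.2 in AS and 136 in RC4. The upstream site went the other way, at 30.5 and 27.8 RPM in NT MB and 19.7 in RC4, and at 22.0 and 24.9 in NT MT and 14.8 in RC4. Counted over last-exon sites alone, the RC4 log2 fold change of Cstf3 was 1.47 (edgeR adjusted p = 0.00628).

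The share of Cstf3 reads at upstream sites was accordingly lower in RC4, at 14.3% in MB (interval 10.7 to 18.9%) and 9.6% in MT (7.1 to 12.8%). The AS libraries lay between, at 20.1% and 22.6%, and all 4 NT libraries were at 25.0% or above. The test of this share called 0% of 619 genes (64 at an unadjusted p under 0.05, and 5 called by limma; Cstf3 log2 change of the last-exon to upstream ratio 1.82 ± 0.44, edgeR adjusted p = 0.122), and with unlisted sites set to 4 reads Cstf3 passed (adjusted p = 0.0172).

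Of the other genes, Cpsf6 had a log2 fold change of 0.57 ± 0.22 in RC4 (edgeR adjusted p = 0.163), with 207 RPM in MB, inside its NT range, and 188 RPM in MT, above its NT range. Cstf1 had -0.76 ± 0.33 (adjusted p = 0.208), with 18.2 RPM in MB and 17.0 in MT, below every NT library of its cell state. Cpsf7 had -0.58 ± 0.29 (adjusted p = 0.267), at 27.1 and 20.8 RPM, also below every NT library of its state. Cstf2, Cstf2t and Nudt21 lay between 0.03 and 0.50, and the Cstf2t value rested on its main site.

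In NIH3T3 cells RC4 was measured with 1 library per condition, so the differences had no replicate check, and genes past 1.5-fold were counted. In RNA-seq after AS, 1 of 7 passed, against 16.6% of 11320 genes. Cstf3 stood at 1381 normalized counts in NT at 0 h and 2484 in AS, 1.80-fold higher. After 4 h of recovery 2 of 7 passed, against 52.8% of 11136 genes. Cpsf6 stood at 4463 normalized counts in NT at 4 h and 15668 in RC4, 3.51-fold higher. Cstf3 stood at 1866 and 5180, 2.78-fold higher. These ratios were above those of 94.2% and 91.3% of all genes. The other 5 genes lay between 0.89-fold (Nudt21) and 1.20-fold (Cpsf7).

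The untreated RNA-seq libraries at 0 h and 4 h differed by 1.35-fold in Cstf3 and by less than that in the other 6, and 10.6% of all genes differed by over 1.5-fold between them. With scaling by library totals in place of median ratios, the median log2 ratio of all genes in RC4 was -0.80. Cpsf6 then had a log2 ratio of 1.01 in place of 1.81 and Cstf3 0.67 in place of 1.47. The same scaling put Cstf2 (-0.85), Cstf2t (-0.95) and Nudt21 (-0.98) past the fold in the lower direction and turned Cstf1 (-0.57) and Cpsf7 (-0.54) from above NT to below it. With this scaling 59.1% of all genes were past the fold in the lower direction.

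**Figure D3:**
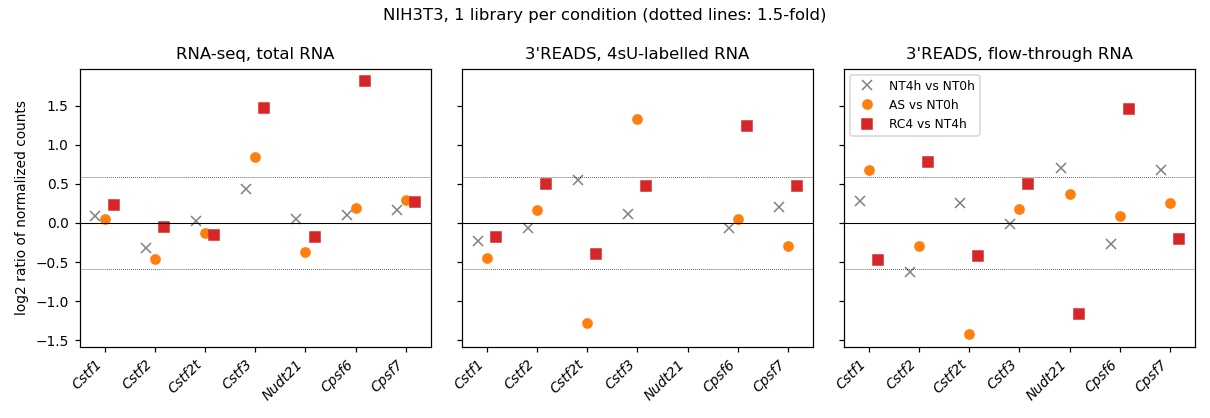
Log2 ratio of normalized counts for each gene in NIH3T3 cells, from RNA-seq of total RNA and from 3′READS of 4sU-labelled and flow-through RNA, with 1 library per condition and dotted lines at 1.5-fold. Cpsf6 was higher in RC4 in all 3 kinds of RNA (1.81, 1.24 and 1.46), and Cstf3 was higher in AS in RNA-seq (0.85) and 4sU RNA (1.34); Nudt21 is not shown for 4sU RNA, where it was unlisted in 3 of the 4 libraries.

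In newly made (4sU) RNA, 2 of 6 genes passed the fold after AS, against 33.8% of 9580 genes. Cstf3 stood at 310 RPM in NT at 0 h and 714 in AS (2.52-fold by normalized counts), and its ratio was above that of 97.1% of genes. Cstf2t stood at 102 and 38.4 RPM (0.41-fold), with 19 and 14 reads at its other site. In RC4, 1 of 6 passed, against 48.5% of 10196 genes. This was Cpsf6, at 218 RPM in NT at 4 h and 396 in RC4 (2.36-fold). The untreated 4sU libraries differed by 0.96-fold in Cpsf6 and 1.08-fold in Cstf3.

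In flow-through RNA, which the study describes as enriched in pre-existing RNA, 2 of 7 passed after AS, against 25% of 9531 genes. The 6 arsenite response genes summed to 2345 RPM in Ft RNA of AS and to 130 RPM in each NT library. Ft RNA was thus not free of transcripts that were higher after 1 h of arsenite. Cstf1 was at 38.7 RPM in NT and 61.9 in AS (1.60-fold), and Cstf2t at 579 and 217 RPM (0.37-fold), with 11 and 5 reads at its other site. In RC4, 3 of 7 passed, against 50.7% of 9336 genes. Cpsf6 was at 171 RPM in NT at 4 h and 342 in RC4 (2.74-fold). Cstf2 was at 22.7 and 28.4 RPM (1.72-fold) and Nudt21 at 7.16 and 2.34 RPM (0.45-fold, on 23 and 7 reads). Cstf2 and Nudt21 also differed by over 1.5-fold between the untreated Ft libraries (0.65-fold and 1.63-fold), in the opposite direction to RC4. Cpsf6 did not (0.83-fold).

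In 3′READS of total RNA, from another replicate than the RNA-seq, only Cstf2t passed the fold in RC4 (1 of 7, against 42.8% of 8566 genes). Its other site was unlisted in NT and had 7 reads in RC4. Cpsf6 stood at 233 RPM in both the NT and the RC4 library (1.20-fold by normalized counts) and Cstf3 at 37.8 and 39.6 RPM (1.26-fold). At 8, 12 and 24 h of recovery Cpsf6 was at 216, 225 and 190 RPM. The 3.51-fold difference of Cpsf6 in RNA-seq was thus not seen in the 3′READS library of replicate 4, and the libraries of the 2 assays carried different replicate numbers.

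The Cstf3 site used also differed in the labelled fractions. In 4sU RNA the upstream share was 25.3% in each NT library (intervals 22.2 to 28.6% and 23.03 to 27.7%), 11.8% in AS (10.2 to 13.6%) and 21.7% in RC4 (19.7 to 23.8%). The AS value came with more last-exon reads, since the last-exon site stood at 232 RPM in NT at 0 h and 627 in AS while the upstream site was at 70.3 and 74.8 RPM. In Ft RNA the share was 24.3% and 39.0% in NT, 31.9% in AS and 16.8% in RC4. In total RNA of NIH3T3 cells it was 64.6%, 36.5% and 85.2% in NT and 59.6%, 27.8% and 86.4% in AS, so libraries of 1 treatment spanned a wider range than the NT and AS libraries of 1 replicate number. The AS vs NT test of this share did not use the replicate pairs and called 0% of 1128 genes (2 at an unadjusted p under 0.05, and 0 called by limma). With so few genes at that p, its lack of calls carried no information. In RC4 of replicate 4 the share was 88.9%.

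**Figure D4:**
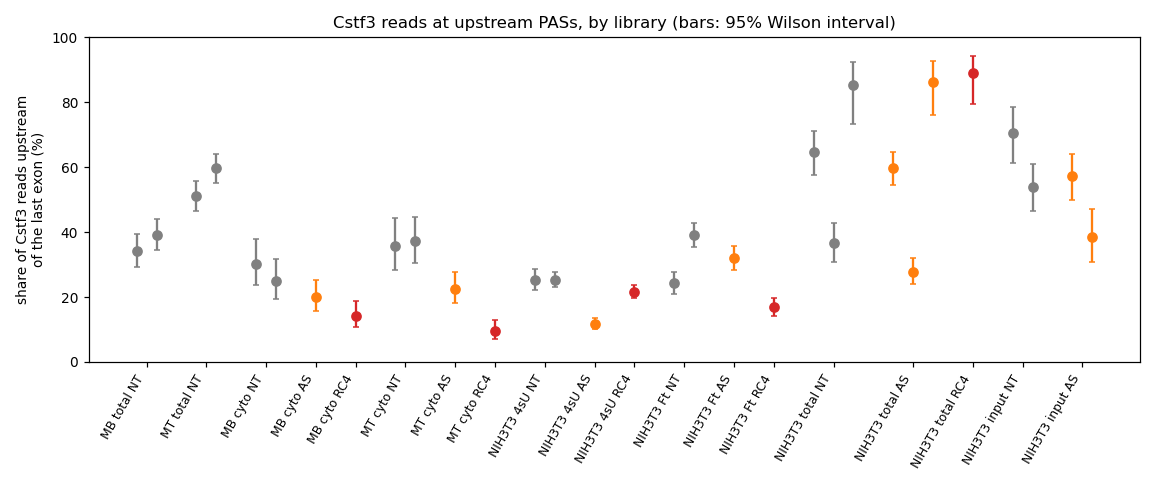
Share of Cstf3 reads at PASs upstream of the last exon in each library, as a percentage of all Cstf3 reads, with 95% Wilson intervals and grey, orange and red points for NT, AS and RC4. Shares were lowest in RC4 in the C2C12 cytoplasm, were higher in MT than MB total RNA, and spanned 27.8% to 88.9% among NIH3T3 total RNA libraries, where replicates differed more than treatments.

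The lengths of the 3′UTRs were followed by the dPAS share of each pair, which for Cpsf6 left out its sites further downstream. Among NT and AS total RNA libraries of NIH3T3 cells 0% of 3921 pairs were called (3 at an unadjusted p under 0.05, and 0 called by limma), and the 5 members tested were not. The replicate pairs were not used in this test, and with so few site pairs at that p its lack of calls carried no information. In simulated data with an assumed spread between libraries, this test recovered 18.7% of 2-fold and 91.0% of 4-fold changes of the ratio. The assumed spread was smaller than that of the Cstf2 and Cpsf6 shares given next, so these rates do not hold for such pairs. Cpsf6 had a dPAS share of 81.2%, 39.2% and 78.8% in NT and 80.2%, 43.4% and 75.9% in AS, and replicate 2 stood apart in both conditions. Cpsf7 had 67.9%, 43.5% and 45.9% in NT and 64.3%, 46.0% and 47.5% in AS. Cstf2 had 82.4%, 69.3% and 30.0% in NT and 81.7%, 67.4% and 28.1% in AS, with replicate 4 apart. Cstf1 had 37.3%, 19.8% and 0% in NT and 25.6%, 13.9% and 17.3% in AS. The value of 0% rested on 41 reads, with the dPAS unlisted. Cstf2t had 93.0%, 98.9% and 100% in NT and 97.5%, 88.1% and 100% in AS.

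In the C2C12 cytoplasm 1.15% of 3053 pairs were called in RC4 and 0% of 3053 in AS (123 at an unadjusted p under 0.05, and 9 called by limma), and no member was called in either (4 tested). The Cstf1 dPAS was unlisted in both RC4 libraries, on 37 and 45 pPAS reads, and it was also unlisted in 2 of the 6 other libraries. The dPAS shares of Cpsf6 in RC4 were 76.2% in MB, below its NT values of 82.6% and 80.9%, and 92.1% in MT, above its NT values of 85.3% and 87.1%, so the cell states went opposite ways.

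With 1 library per condition, pairs were counted as called where Fisher's exact test on the reads gave p under 0.05 and the share changed by over 5 percentage points, which compares those libraries only. In 4sU RNA of RC4, 3 of the 5 members tested had a lower dPAS share, against 27.7% of 4111 pairs called. Cstf1 went from 38.5% (interval 33.4 to 43.9%) in NT at 4 h to 22.5% (17.7 to 28.1%), Cstf2 from 60.8% (49.4 to 71.1%) to 37.6% (28.1 to 48.3%) and Cpsf7 from 49.6% (45.9 to 53.3%) to 34.2% (31.1 to 37.5%). The NT library at 0 h had 26.3% for Cstf1, so the untreated libraries of this set differed by 12.2 points in Cstf1, and it had 43.9% for Cstf2. Cpsf7 was at 51.8% there, close to its NT value at 4 h.

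In 4sU RNA of AS, 1 of 5 was called (Cstf2t, lower), against 24.6% of 3276 pairs. The Cstf2t site at the A run held 220 of 239 reads in NT at 0 h and 63 of 77 in AS. In Ft RNA of RC4, 1 of 4 was called, against 31.8% of 3079 pairs. This was Cpsf6, with 81.3% (76.9 to 85.0%) in NT at 4 h and 69.5% (66.1 to 72.8%) in RC4. In Ft RNA of AS, 2 of 4 were called, against 16.5% of 3108 pairs, with Cstf2 lower (43.2% to 26.6%) and Cpsf6 higher (74.7% to 81.7%). The Cpsf6 share was also 6.60 points higher in the NT library at 4 h than in that at 0 h. In total RNA of RC4 none of the 3 members tested was called, against 15% of 2159 pairs.

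**Figure D5:**
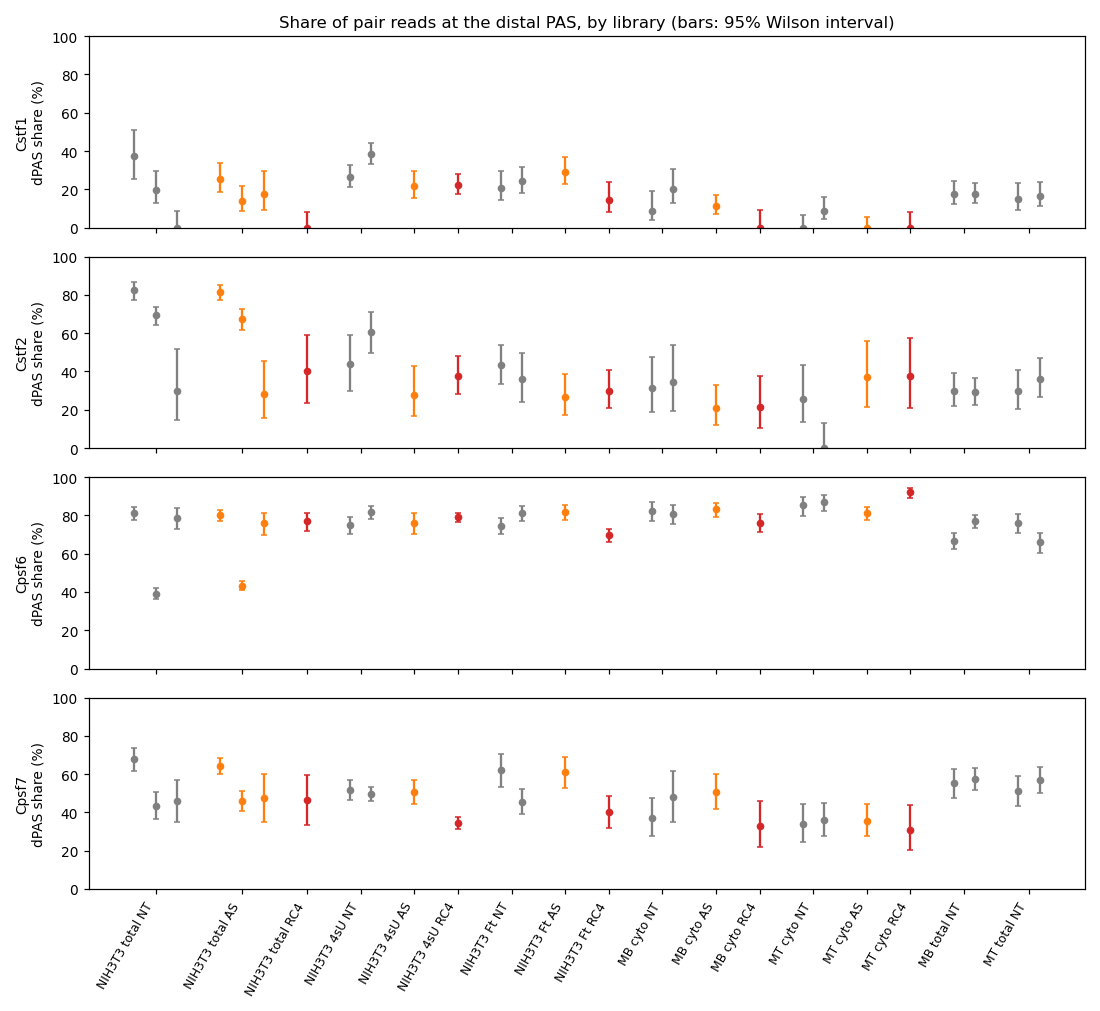
Share of pair reads at the dPAS for Cstf1, Cstf2, Cpsf6 and Cpsf7 in each library, in percent, with 95% Wilson intervals and grey, orange and red points for NT, AS and RC4. In 4sU RNA the RC4 points of Cstf1, Cstf2 and Cpsf7 lay below both NT points, while in NIH3T3 total RNA the spread between replicates was wider than that between NT and AS.

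TIA1 binding was measured as the level in TIA1-bound RNA against the input. The input was a part of the supernatant used for the immunoprecipitation, so libraries of 1 treatment and replicate number were also compared as pairs. Without the pairing none of the 7 was called in NT, against 3.62% of 9594 genes, or in AS, against 0.99%. With a replicate block within each treatment none was called in NT, against 18.7% of genes, and Cpsf7 and Cstf2t were called in AS, against 16.7%. Cpsf7 stood at 118 and 109 RPM in TIA1-bound RNA of AS cells and 37.6 and 44.0 in the input, with no overlap (log2 fold change 1.26 ± 0.46, edgeR adjusted p = 0.175). The paired value was 1.26 (adjusted p = 0.0252). In NT cells it stood at 73.8 and 133 RPM against 45.6 and 66.2. Nudt21 in NT cells was unlisted in 1 TIA1 library and at 2.41 RPM in the other, on 14 reads, against 11.03 and 16.1 RPM in the input (-3.46 ± 1.35, edgeR adjusted p = 0.175). The paired value was -4.16 (adjusted p = 0.0619), and a block on the replicate number over both treatments gave -3.93 (adjusted p = 0.0443). Cstf2t stood at 21.0 and 59.6 RPM in TIA1-bound RNA of AS cells and 65.2 and 103 in the input (-1.27 ± 0.74, edgeR adjusted p = 0.387). The paired value was -1.41 (adjusted p = 0.0187), and without its A run site the unpaired value turned to 0.19 (adjusted p = 0.983).

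Other factors of the machinery were examined as a list of 13 genes of the CPSF, CFII and poly(A) polymerase groups. In MT vs MB total RNA, 2 of 13 tested were higher and 3 lower, against 61.9% of all genes called. Papola, the poly(A) polymerase, had a log2 fold change of 0.72 ± 0.14 (edgeR adjusted p = 0.000436), and Sympk, which encodes the scaffold symplekin, 0.34 ± 0.14 (adjusted p = 0.0442). Pabpn1, encoding the nuclear poly(A) binding protein, had -0.54 ± 0.21 (adjusted p = 0.034), and the CPSF subunit genes Cpsf1 and Cpsf2 had -0.45 ± 0.17 and -0.36 ± 0.15 (adjusted p = 0.0321 and 0.0496). In AS vs NT total RNA 0 of the 12 tested were called. In RC4 vs NT of the C2C12 cytoplasm, 1 of 12 was higher, the CPSF subunit gene Fip1l1 (0.79 ± 0.19, adjusted p = 0.0356), and 1 was lower, the CFII gene Clp1 (-2.01 ± 0.37, adjusted p = 0.0111), against 7.94% of all genes.

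For each member, the gene with the most similar pattern was found by Pearson's r of log2(RPM + 1) over 28 groups of 3′READS libraries and 7930 genes. These were Wsb1 for Cstf3 (r = 0.92), Nkrf for Cpsf7 (0.92), Mgst3 for Cstf2t (0.87), Sart3 for Cstf2 (0.86), Gm5474 for Nudt21 (0.85), Skp2 for Cstf1 (0.84) and Hsp90aa1 for Cpsf6 (0.76). The groups shared cell lines, sets and depth, so these values are descriptions.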

How the data were processed

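The authors trimmed reads with cutadapt and mapped 3′READS reads with Bowtie2 and RNA-seq reads with STAR to mm9, per the labels' processing notes. The deposited 3′READS files hold raw read counts per PAS with at least 5 reads, and the deposited RNA-seq files hold raw read counts per gene. PAS positions (99725 in the files) within 24 nt on a strand were merged into 83916 clusters. A cluster was given to a GENCODE M1 protein-coding gene if it lay in its span or up to 4000 nt downstream, before the next gene (832 ambiguous clusters were left out). Members and lists were chosen with earlier results of these data known. Unlisted values entered as 0.

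Gene counts were tested with edgeR 4.0.16 (quasi-likelihood, median ratio scaling) in R 4.3.3, and the ratio of dPAS to pPAS or of last-exon to upstream reads with an edgeR interaction term. Adjusted p under 0.05 was called. Named were the 7 members, those of 13 listed factors that passed in MT vs MB or AS vs NT total RNA (values for RC4 were chosen after they were seen), and the gene most like each member. A PAS pair was the 2 most abundant 3′UTR sites within 10 kb. Where 1 library stood per condition, median ratio normalized counts were compared.

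NT and AS total RNA libraries of one replicate number deviated together (r = 0.851, 0.850 and 0.778 across 9115 genes), so the number was taken as a pair. TIA1 and input libraries of one treatment and number were taken as pairs because the study's methods take input from the immunoprecipitated supernatant (r = 0.359 in NT and 0.388 in AS). Alternatives were TMM scaling, DESeq2 1.42.0, limma 3.58.1, no filter, last-exon sites, 4 reads for unlisted sites, the replicate block and leaving out each library. Leaving out the main Cstf2t site, the replicate block within each treatment, a minimum of 20 reads, the cytoplasm minus total RNA test and the upstream site test in the cytoplasm were chosen after seeing the data. The fits were tested on simulated data.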

Additional observations from a re-analysis of the deposited data

Results flagged for a closer look

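Cstf3 is listed here because its MT vs MB difference was not the same in both sets of C2C12 libraries. The log2 fold change in the cytoplasm minus that in total RNA was -1.10 (edgeR adjusted p = 0.0173, DESeq2 adjusted p = 0.00417), in a test of the difference itself. Leaving out single libraries gave adjusted p values from 0.00504 to 0.108, and last-exon sites alone gave -0.80 (adjusted p = 0.118). The RNA fraction and the set of libraries cannot be told apart.

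Cpsf7 is listed because its AS libraries lay above NT in every pair of total RNA and below NT in every pair of cytoplasmic input, both from NIH3T3 cells. The mean log2 ratio over the 3 pairs of total RNA was 0.37 (0.47, 0.57 and 0.06), and the pairs of input gave -0.24 and -0.73. Without the replicate block, edgeR called Cpsf7 in neither set. The difference between these sets was not tested, and the share of all genes with this pattern of signs was not counted.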

How the results depend on the processing

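Of 776 values of single genes or pairs under alternative settings, 657 were counted as the same. For tested values this meant the same direction and the same side of the threshold. For single libraries it meant a move within counting error, which could still cross the threshold. Of the rest, 40 turned sign, 32 lost and 18 gained a call, and 29 single-library values moved by more than counting error. Of 192 counts of members called, 160 stayed within 1.5 times. DESeq2 called 1 member in TIA1 vs input in NT, in AS vs NT of the C2C12 cytoplasm and in AS vs NT input, and 3 in MT vs MB total RNA. The replicate block called 1 member in TIA1 vs input in NT and in AS vs NT input and 2 in TIA1 vs input in AS (Cpsf7 1.28 and Cstf2t -1.46), and 0 in the upstream site test of MT vs MB, where 4 reads for unlisted sites gave 2. NT and AS input and MT and MB, with 2 pairs each, shared only a number (r = 0.576 and 0.053). For TIA1, where input and bound RNA came from 1 supernatant, the replicate block within each treatment called 0 members in NT and 2 in AS.

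In AS vs NT total RNA the block changed no member's call. It gave 0.019 for Cstf2 and 0.35 for Nudt21, and for site pairs 0.0043 for Cpsf6, -0.015 for Cpsf7 and 0.087 for Cstf2t. Over all genes the block gave 29 calls in place of 0 in AS vs NT total RNA, 76 in place of 0 in input (24 by DESeq2, 3 with no filter), 1801 in place of 347 and 1554 in place of 95 for TIA1 in NT and AS (1790 and 1600 within each treatment), and 0 in place of 120 and of 190 for site pairs and upstream sites in MT vs MB. DESeq2 gave 1285 and 1087 for TIA1 (1100 and 856 with no filter, 56 by TMM in AS) and 210 in place of 40 for AS in the C2C12 cytoplasm. Giving 4 reads to unlisted sites led to 555 pairs and 377 upstream sites in MT vs MB and 295 pairs in place of 35 in RC4. It also gave -0.16 for the Cstf1 pair and 0.058 for the upstream sites of Cstf2 in AS vs NT total RNA, and 1 member (Cstf3) in the upstream test of RC4. Last-exon sites alone gave -0.20 for Cstf3 in MT vs MB total RNA, and without its main site Cstf2t had 0.19 in TIA1 vs input in AS.

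With 1 library per condition, library totals gave 2 members past 1.5-fold in RC4 of 4sU RNA, 5 in Ft RNA, 5 in RNA-seq and 2 in total RNA. Of all genes, 52.1%, 57.4%, 68.8% and 46.5% passed under this scaling. The mean of the untreated libraries gave 1 in AS of Ft RNA, against 20.4% of all genes. It gave 2 in RC4 of total RNA (Cstf2t 0.46), against 57.5%. Past 2-fold lay 1 member in AS of Ft RNA (9.37% of all genes) and 0 in AS of RNA-seq (5.85%). For site pairs, summing both untreated libraries gave 3 calls in AS of 4sU RNA, 0 in AS of Ft RNA and 2 in RC4 of Ft RNA. Of all pairs, 28.1%, 18.4% and 34.1% were called there. A minimum of over 20 reads gave 0 in AS of 4sU RNA and 1 in AS of Ft RNA, against 32.9% and 20.2% of all pairs.

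Leaving out 1 library gave 1 to 2 members called in MT vs MB of the cytoplasm, 0 to 1 in RC4, and 0 to 2 in the upstream test of MT vs MB. In AS vs NT total RNA the gene values then ranged from -0.16 to 0.86 for Cpsf7, from -0.53 to 0.51 for Cstf2, from -3.62 to 3.36 for Cstf2t and from -1.79 to 0.61 for Nudt21. Pair values ranged from -0.89 to 0.67 for Cpsf6, -0.34 to 0.47 for Cpsf7, -0.75 to 1.73 for Cstf1, -0.98 to 0.74 for Cstf2 and -4.23 to 1.72 for Cstf2t, and the upstream value of Cstf3 from -0.75 to 1.23. In MT vs MB, pair values ranged from -0.48 to 0.28 for Cpsf6, -0.30 to 0.028 for Cpsf7 and -6.43 to 0.24 for Cstf2t, and Cstf2t in the cytoplasm from -0.40 to 0.70. The cause was not tested for any of these changes. Depth limits Nudt21 most, with 0 to 48 reads per library, and intervals cover counting error only.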

Other observations

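At later recovery times in total RNA of NIH3T3 cells (replicate 4, 1 library each, against the NT library at 0 h), Cstf2 had normalized count ratios of 1.33-fold at 8 h, 2.12-fold at 12 h and 2.42-fold at 24 h, on 20 reads in NT and 30, 52 and 35 reads. Its AS library of the same replicate had 2.40-fold. Cstf3 lay between 0.97-fold and 1.36-fold and Cpsf6 between 0.80-fold and 0.94-fold at these times. The upstream share of Cstf3 reads was 74.6% at 8 h, 78.9% at 12 h and 86.8% at 24 h, against 85.2% in NT and 88.9% in RC4.

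The stretches of 3′UTR between the paired sites were 48.6% U in Cpsf7, 40.9% in Cpsf6, 36.7% in Cstf3 (between its last-exon site and another 109 nt upstream), 31.6% in Cstf2, 29.1% in Cstf2t and 25% in Cstf1, against a median of 30.9% over 8570 pairs, whose median length was 572 nt.

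Upstream Cpsf6 sites, unlisted in all NIH3T3 total RNA libraries, held 9 and 17 reads in the NT libraries of 4sU RNA and 46 reads in RC4 (1.8%, 2.1% and 2.7% of Cpsf6 reads).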
